A study of Rattus norvegicus with 10 samples.

Results

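The genes described here form the core of AKT, mTOR and FOXO signalling, taken by symbol from the count table of a rat hippocampus study. Of the 8 genes Akt1, Akt2, Mtor, Rictor, Rptor, Foxo1, Foxo3 and Tsc1, 7 had a row in the table of 13670 gene symbols, and Rictor was not analysed here. All 7 were tested, and their lowest count in any library was 358. Each of the 10 libraries came from a female TgF344-AD rat killed at 11 months of age, whose left hippocampus was frozen after perfusion with saline. Untreated rats (5) ate rodent chow, and BT-11 rats (5) ate chow with BT-11 for 6 months from the age of 5 months. TgF344-AD is a Fischer rat line known to carry mutant human transgenes of familial Alzheimer disease under the mouse prion promoter, and both groups carry them. BT-11 is an oral small molecule known to bind LANCL2, and the labels give no dose for it. The study asked which hippocampal transcripts differ between BT-11 and untreated transgenic females, and wild-type rats are not analysed here.

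AKT is a serine/threonine kinase that insulin, growth factor and neurotrophin receptors switch on through PI3K. Active AKT phosphorylates FOXO transcription factors, which then leave the nucleus, and the TSC complex, which otherwise holds back the small GTPase RHEB and with it the kinase mTOR. mTOR works in complex 1, with RPTOR (raptor), which drives protein synthesis and restrains autophagy, and in complex 2, with RICTOR, which phosphorylates AKT. In the hippocampus the pathway is known for its part in lasting synaptic plasticity. Its activity is set mainly by phosphorylation, which RNA levels do not measure.

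Library totals ran from 13721673 to 19700443 counts. None of the 10 neuron markers was at 0 throughout, but neither was any marker with a row in the 9 cell type lists. This therefore does not check the tissue. Levels are in CPM, counts relative to the library total and scaled between libraries by the TMM method. Untreated library 4 and BT-11 library 3 stood apart with 1656 and 1715 CPM summed over 8 choroid plexus and ependyma markers, against 76.5 to 227.4 CPM in the other libraries. The 13 markers of mature oligodendrocytes and myelin summed to 9133 to 16970 CPM in untreated and 6709 to 9885 CPM in BT-11 libraries, highest in untreated library 3. All 13 were lower in the mean with BT-11, 12 of them at an unadjusted p under 0.05 and 0 after adjustment. Over all genes tested, 5.96% reached that unadjusted level, and 3.42% were lower at it. Markers of 1 cell type can shift together, so such counts are not counts of independent genes. The 10 neuron markers summed to 5224 to 7209 CPM in untreated and 6825 to 8211 CPM in BT-11 libraries, lowest in untreated library 3. In the mean 8 of them were higher with BT-11 and 2 lower, the inhibitory neuron markers Gad1 and Gad2. At an unadjusted p under 0.05 there were 3, all higher, and 0 after adjustment. Of all 12000 genes tested, 304 were higher at that unadjusted level. Markers of red blood cells summed to 4.51 to 11.98 CPM in untreated and 5.34 to 220.1 CPM in BT-11 libraries. The highest was BT-11 library 4, followed by BT-11 libraries 2 and 1 at 42.8 and 33.0 CPM. The 2 tested, Hbb and Hba1, were higher with BT-11, at log2 fold changes of 2.95 and 2.81 over untreated. Each was among the 304 genes higher at an unadjusted p under 0.05, and 0 passed after adjustment. In bulk tissue, fewer cells of a type and less RNA per cell cannot be told apart.

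None of the 7 core genes passed the comparison of BT-11 with untreated rats by edgeR's quasi-likelihood test, adjusted by the Benjamini-Hochberg method across 12000 genes. Adjusted p-values ran from 0.844 to 0.96, where 0 of 12000 genes (0%) passed 0.05. At an unadjusted p under 0.05, 0 of the 7 were counted, against 715 of all genes, or 5.96%. The median log2 fold change of BT-11 over untreated was -0.02 over the 7 genes and -0.000157 over all genes tested, with 3 of the 7 higher and 4 lower. The 95% intervals of all 7 lay between 0.783-fold and 1.26-fold, the lowest end being that of Foxo3 and the highest that of Foxo1. DESeq2, an alternative test, gave the 7 genes adjusted p-values of 0.877 or more. It called 8 genes, or 0.0667% of the 12000 in its fit, not all of which received an adjusted p. With the myelin marker level as a covariate, the log2 fold changes ran from -0.24 for Foxo3 to 0.10 for Akt1, again with 0 of 7 called. As all 13 myelin markers were lower in the mean with BT-11, this covariate shares variation with the treatment. Values with the covariate, here and below, therefore cannot tell myelin content and treatment apart. The CPM of the groups overlapped for all 7 genes. Over all genes tested, 101 (0.842%) had groups that did not overlap.

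**Figure D1:**
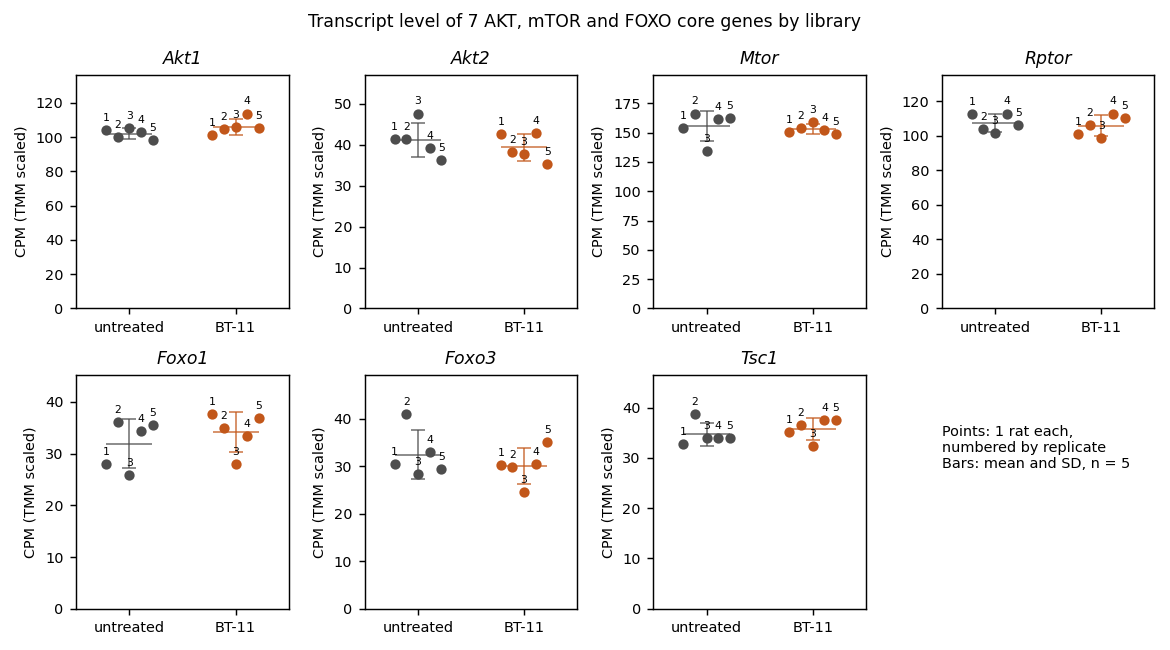
CPM of each of the 7 core genes in 10 libraries, with the y axis from 0, a point per rat numbered by replicate, and bars for the mean and SD of 5 rats. The untreated and BT-11 points overlap in every panel, as for Akt1, at 98.2 to 105.6 CPM against 101.1 to 113.8 CPM.

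Akt1 encodes the AKT kinase found in most tissues. Its transcript row lies on chromosome 6 at 137219131 to 137236202 on the minus strand of rn6, with a deposited transcript length of 1606 bases. Akt1 measured 104.1, 99.9, 105.6, 102.9 and 98.2 CPM in untreated libraries 1 to 5 and 101.1, 104.5, 105.9, 113.8 and 105.2 CPM in BT-11 libraries 1 to 5. The highest level was in BT-11 library 4 and the rest of both groups lay in a common range. The means were 102.1 ± 3.05 CPM (SD, n = 5) and 106.1 ± 4.68 CPM (SD, n = 5), a log2 fold change of 0.06 ± 0.0515 (SE; edgeR, adjusted p = 0.844). The interval of the change was 0.962-fold to 1.12-fold, narrow because Akt1 varied little between animals. Its biological coefficient of variation, the spread between rats beyond counting noise, was 6.73%, and 4.79% of the 710 genes within 0.25 log2 CPM of its level had a lower value.

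Akt2 encodes the AKT kinase best known for insulin-stimulated glucose uptake, and lies on chromosome 1 at 84411726 to 84450163 on the plus strand. Akt2 measured 41.35, 41.5, 47.7, 39.3 and 36.2 CPM in untreated libraries and 42.7, 38.3, 37.7, 43.0 and 35.3 CPM in BT-11 libraries, in replicate order. Untreated library 3, the library highest in myelin markers, was the highest of the 10, and the groups overlapped over most of their range. The log2 fold change was -0.06 ± 0.0822 (SE; edgeR, adjusted p = 0.887), with an interval of 0.846-fold to 1.08-fold. It was 0.012 with the myelin marker level as a covariate and leaving out 1 library gave values between -0.11 (untreated library 5) and -0.009 (untreated library 3).

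Akt1 and Akt2 are close paralogues, and 2 libraries hold fractional counts for both. In untreated library 5 the counts were 1916.77 and 707.23, which add up to 2624. In BT-11 library 3 they were 1612.78 and 574.224, which add up to 2187 within 0.005. The counts of both genes were whole in the other 8 libraries.

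Levels of different genes were compared per kilobase of the deposited transcript length, in CPM per kilobase over 10 libraries. Akt1 stood at 64.8 ± 2.67 CPM per kilobase (SD, n = 10) and Akt2 at 20.3 ± 1.86 CPM per kilobase (SD, n = 10). Akt1 was the more abundant of both in every library.

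The count ratio of Akt1 to Akt2 within a library needs no scaling between libraries. On the log2 scale it was 1.32 ± 0.114 in untreated and 1.43 ± 0.122 in BT-11 libraries (SD, n = 5 each). As a plain ratio it ran from 2.215 to 2.71 in untreated and from 2.37 to 2.98 in BT-11 libraries. The difference of 0.12 did not pass a two-sided exact permutation test over all assignments of 5 and 5 libraries (p = 0.159, adjusted p = 0.159 over the 2 ratios tested, smallest possible p 0.00794). Without BT-11 library 1 the difference was 0.16 with an exact p of 0.0397, and without any other single library the exact p ran from 0.103 to 0.31. The ratio of Rptor to Rictor could not be computed.

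Mtor encodes the kinase shared by both mTOR complexes and lies on chromosome 5 at 165263818 to 165373968 on the plus strand. Mtor measured 153.8, 166.3, 134.0, 161.3 and 162.2 CPM in untreated libraries and 150.3, 154.2, 159.4, 151.9 and 148.7 CPM in BT-11 libraries, in replicate order. All 5 BT-11 libraries fell inside the untreated range, whose low end was untreated library 3, the library with the most myelin and the least neuron marker RNA. The means were 155.5 ± 12.9 CPM (SD, n = 5) and 152.9 ± 4.18 CPM (SD, n = 5), a log2 fold change of -0.03 ± 0.0647 (SE; edgeR, adjusted p = 0.952). It was -0.08 without untreated library 3 and -0.000156 without untreated library 2, neither of them a call.

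Rptor encodes raptor, the scaffold that brings substrates to mTOR complex 1, on chromosome 10 at 108750620 to 109058692 on the plus strand. Rptor measured 112.4, 103.8, 101.4, 112.8 and 106.0 CPM in untreated libraries and 101.1, 106.0, 98.6, 112.8 and 110.4 CPM in BT-11 libraries, in replicate order. The highest value of each group was 112.8 CPM, and the groups covered nearly the same range. Rptor had a log2 fold change of -0.02 ± 0.0581 (SE; edgeR, adjusted p = 0.96), with an interval of 0.904-fold to 1.08-fold. Its sign turned without BT-11 library 3, at 0.00845. Per kilobase, Mtor at 18.1 ± 1.07 and Rptor at 15.9 ± 0.795 CPM per kilobase (SD, n = 10 each) were close to each other, and their library ranges overlapped.

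The list of mTOR complex subunits held 11 genes, of which 8 had a row and were tested. None passed over all genes, and 3 were higher and 5 lower, with a median log2 fold change of -0.02. Mlst8, a subunit of both complexes, had a log2 fold change of -0.05 ± 0.0526 (SE; edgeR, adjusted p = 0.863). Prr5, a subunit of mTOR complex 2, was the single subunit of 8 at an unadjusted p under 0.05, a level that 5.96% of all genes reached. It measured 8.86, 11.3, 10.3, 9.36 and 8.65 CPM in untreated libraries and 6.70, 6.19, 8.01, 8.08 and 9.0 CPM in BT-11 libraries, in replicate order. BT-11 library 5 reached into the untreated range and the other 4 lay below it. Prr5 had a log2 fold change of -0.35 ± 0.125 (SE; edgeR, adjusted p = 0.809), and of -0.13 with the myelin covariate. Its paralogue Prr5l, also a complex 2 subunit, was at -0.315 ± 0.198 on the log2 scale (SE; edgeR, adjusted p = 0.816).

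Tsc1 encodes hamartin, which stabilises the TSC complex, on chromosome 3 at 7237316 to 7264948 on the plus strand. Tsc1 measured 32.7, 38.8, 34.0, 33.9 and 34.0 CPM in untreated libraries and 35.2, 36.5, 32.3, 37.6 and 37.45 CPM in BT-11 libraries, in replicate order. Untreated library 2 stood above the other 4 of its group and above every BT-11 library. Tsc1 had a log2 fold change of 0.05 ± 0.0667 (SE; edgeR, adjusted p = 0.898), with an interval of 0.935-fold to 1.14-fold. Leaving out 1 library gave values between 0.0244 (untreated library 1) and 0.0902 (untreated library 2).

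Partners of Tsc1 gave values of the same order. Tsc2, which encodes tuberin, the subunit that acts on RHEB, had a log2 fold change of 0.00433 ± 0.0981 (SE; edgeR, adjusted p = 0.997), and of 0.16 with the myelin covariate. Rheb, the GTPase that activates mTOR complex 1, was at 0.06 ± 0.0528 (SE; edgeR, adjusted p = 0.846). Tbc1d7, the third subunit of the complex, was at -0.04 ± 0.111, and the RHEB relative Rhebl1 at -0.03 ± 0.15 on the log2 scale (SE; edgeR, adjusted p = 0.956 and 0.979). Per kilobase, Tsc1 at 10.1 ± 0.635 was far below Tsc2 at 38.6 ± 4.19 and Rheb at 82.8 ± 3.64 CPM per kilobase (SD, n = 10 each).

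Foxo1 encodes a forkhead transcription factor that AKT holds out of the nucleus, on chromosome 2 at 141451234 to 141527017 on the plus strand. Foxo1 measured 28.0, 36.1, 25.8, 34.3 and 35.4 CPM in untreated libraries and 37.7, 34.9, 28.0, 33.4 and 36.8 CPM in BT-11 libraries, in replicate order. The 3 lowest libraries were untreated libraries 1 and 3 and BT-11 library 3, and the groups overlapped. Untreated libraries 1 and 3 also had the lowest summed neuron markers, at 5942 and 5224 CPM. Untreated library 2, the next lowest at 6103 CPM, had the highest Foxo1 of its group. With group means removed, Foxo1 had its highest r over 10 libraries with the neuron markers, at 0.849. Its lowest among the 9 cell type lists was with the microglia markers, at -0.806. The part of neuron content in Foxo1 was not tested. The means were 31.9 ± 4.7 CPM (SD, n = 5) and 34.1 ± 3.8 CPM (SD, n = 5), a log2 fold change of 0.10 ± 0.108 (SE; edgeR, adjusted p = 0.873). It was -0.12 with the myelin covariate, 0.0282 without untreated library 3 and 0.163 without BT-11 library 3, the ends of the range with 1 library left out.

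Foxo3 encodes another FOXO factor, known in neurons and in neural stem cells, on chromosome 20 at 46428078 to 46519157 on the plus strand. Foxo3 measured 30.4, 41.0, 28.3, 33.0 and 29.45 CPM in untreated libraries and 30.2, 29.8, 24.6, 30.5 and 35.2 CPM in BT-11 libraries, in replicate order. Untreated library 2 was the highest and BT-11 library 3, rich in choroid plexus transcripts, the lowest. Foxo3 had a log2 fold change of -0.11 ± 0.112 (SE; edgeR, adjusted p = 0.857), with an interval of 0.783-fold to 1.1-fold. It was -0.0121 without untreated library 2, -0.173 without BT-11 library 5 and -0.24 with the myelin covariate. Foxo4, added from the pathway lists, was at -0.10 ± 0.0948 on the log2 scale (SE; edgeR, adjusted p = 0.847). Foxo6 was not analysed here.

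Foxo1 and Foxo3 encode paralogous FOXO factors, and for that reason their count ratio was compared within libraries. Foxo1 had the highest and Foxo3 the lowest log2 fold change of the 7 genes. The log2 ratio of Foxo1 to Foxo3 was -0.12, -0.19, -0.13, 0.06 and 0.27 in untreated libraries and 0.32, 0.23, 0.19, 0.13 and 0.07 in BT-11 libraries, in replicate order. All 5 BT-11 libraries had more Foxo1 than Foxo3 counts, as did untreated libraries 4 and 5, while untreated libraries 1 to 3 had fewer. The means were -0.02 ± 0.186 and 0.19 ± 0.0968 (SD, n = 5 each), a difference of 0.21. The two-sided exact permutation test over all assignments gave p = 0.0714, or 0.143 adjusted over the 2 ratios, so the difference did not pass. Without untreated library 5 the groups no longer overlapped and the difference was 0.28, with an exact p of 0.00794, the smallest that 126 assignments allow. Without any other single library the exact p ran from 0.0714 to 0.135.

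**Figure D2:**
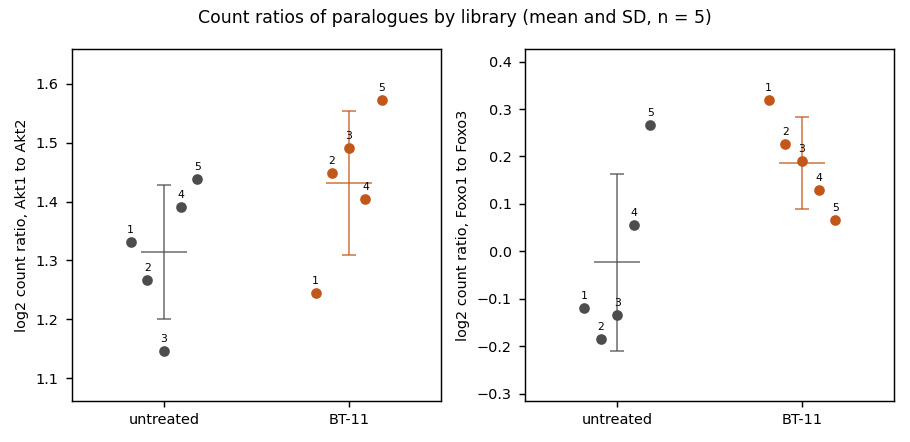
Log2 count ratios of Akt1 to Akt2 (left) and Foxo1 to Foxo3 (right) in 10 libraries, a point per rat numbered by replicate, with bars for the mean and SD of 5 rats. Both y axes are cut to the data, and on the right untreated library 5, at 0.27, lies among the BT-11 points.

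By level per kilobase, the order of the 7 genes was Akt1, Akt2, Mtor, Rptor, Foxo1, Foxo3 and Tsc1. Akt1 stood clear, with its lowest library at 61.1 and the highest Akt2 library at 24.02 CPM per kilobase. Library ranges of Akt2 and Mtor overlapped, as did those of Mtor and Rptor, Foxo1 and Foxo3, and Foxo3 and Tsc1. Rptor and Foxo1 only just did not overlap, at 14.73 and 14.71 CPM per kilobase for the lowest and the highest library. Akt1 was above 89.4% of all genes tested on this scale and Tsc1 above 46.8%. The order rests on the deposited transcript lengths, which may leave out parts of a transcript.

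Across the 10 rats, the highest Pearson correlations among the core genes were those of the FOXO genes and Tsc1, and none passed adjustment. By Spearman's rho, Rptor and Foxo3, at 0.564 (permutation p = 0.096, adjusted p = 0.441), were above Foxo1 and Foxo3. BT-11 library 3 was lowest for Foxo3 and Tsc1, untreated library 3 was lowest for Foxo1, and untreated library 2 was highest for Foxo3 and Tsc1. Of 21 pairs of core genes compared, 0 passed after Benjamini-Hochberg adjustment and 2 had an unadjusted permutation p under 0.05. Foxo3 and Tsc1 had a Pearson r of 0.736 (permutation p = 0.0102, adjusted p = 0.214) and a Spearman rho of 0.612 (permutation p = 0.0663, adjusted p = 0.441) over 10 libraries of log2(CPM + 1). Without the 2 libraries farthest from the median of Foxo3, untreated library 2 and BT-11 library 3, r was 0.375. Leaving out extreme libraries narrows the range of Foxo3 and can lower r by itself, so the fall does not show what the relation rests on. Foxo1 and Tsc1 had an r of 0.651 (permutation p = 0.0465, adjusted p = 0.45) and a rho of 0.588 (permutation p = 0.0809, adjusted p = 0.441), and r was 0.59 without the 2 libraries farthest from the median of Foxo1. Foxo1 and Foxo3 had an r of 0.579 (permutation p = 0.078, adjusted p = 0.45) and a rho of 0.467 (permutation p = 0.179, adjusted p = 0.626), and r was 0.676 without the 2 libraries farthest from the median of Foxo1. With group means removed, r was 0.885 for Foxo3 with Tsc1, 0.718 for Foxo1 with Foxo3 and 0.622 for Foxo1 with Tsc1. The lowest Pearson r was that of Akt2 and Mtor, at -0.565 (permutation p = 0.0858, adjusted p = 0.45) and a rho of -0.333 (permutation p = 0.349, adjusted p = 0.92). It was -0.486 without the 2 libraries farthest from the median of Akt2. By Spearman's rho other pairs were lower, with -0.564 for Akt1 and Mtor (permutation p = 0.095, adjusted p = 0.441). A group of 5 is too small for a correlation of its own.

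**Figure D3:**
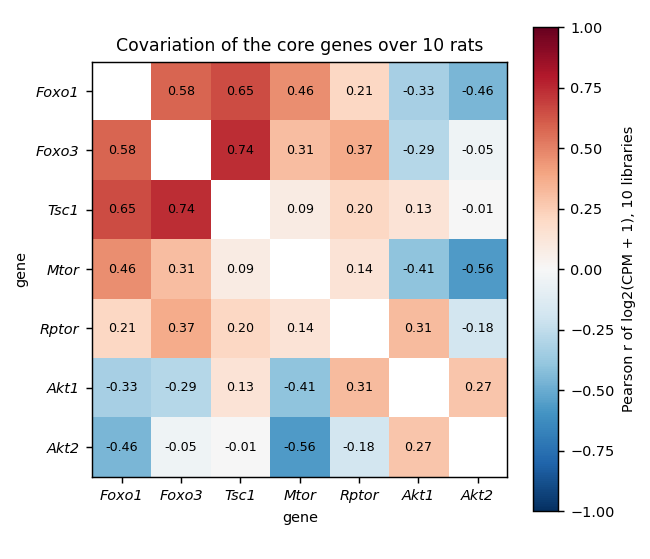
Pearson r of log2(CPM + 1) between each pair of the 7 core genes over 10 libraries, on a colour scale from -1 to 1. Foxo1, Foxo3 and Tsc1 form the block of highest values, up to 0.74, and Akt2 with Mtor is the lowest, at -0.56.

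RefSeq promoter windows of build GRCr8, from 250 bases before to 50 bases after the gene start, were matched by symbol for 5 of the 7 genes. Rptor and Foxo3 had no window in the source used. Those of Foxo1 and Tsc1 are printed, 5′ to 3′ on the gene's strand. Foxo1 encodes a forkhead factor, and its pair with Tsc1 was 1 of the 2 with an unadjusted permutation p under 0.05. The other was that of Tsc1 with Foxo3, also a forkhead factor, whose promoter could not be searched. Capitals mark the forkhead core motif GTAAACA, which FOXO factors are known to bind, searched on both strands. The Foxo1 window is chr2:138462724-138463023 on the plus strand and the Tsc1 window chr3:32367447-32367746 on the plus strand.
Foxo1: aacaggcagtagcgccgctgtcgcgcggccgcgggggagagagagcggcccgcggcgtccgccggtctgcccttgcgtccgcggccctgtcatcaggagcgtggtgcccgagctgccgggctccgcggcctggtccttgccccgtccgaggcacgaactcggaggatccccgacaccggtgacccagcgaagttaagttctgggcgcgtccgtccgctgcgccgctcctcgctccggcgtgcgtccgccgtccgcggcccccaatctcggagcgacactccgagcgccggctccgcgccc
Tsc1: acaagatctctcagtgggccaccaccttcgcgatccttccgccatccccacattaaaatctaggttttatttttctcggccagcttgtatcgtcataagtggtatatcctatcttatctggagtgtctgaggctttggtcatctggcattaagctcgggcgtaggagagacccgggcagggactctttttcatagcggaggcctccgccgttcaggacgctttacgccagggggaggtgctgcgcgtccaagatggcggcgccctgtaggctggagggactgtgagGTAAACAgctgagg

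The motif occurred 1 time in the Tsc1 window, beginning 37 bases into the transcribed part, and 0 times in the windows of Foxo1, Akt1, Akt2 and Mtor. It was found in 3.78% of all 33469 RefSeq windows of the same kind. A match of letters is a description and shows no binding. GC content was 75.0% for Foxo1 and 55.0% for Tsc1, against a median of 51.7% over all windows. The CCAAT box (CCAAT, both strands) occurred 3 times in the Mtor window and 1 time in that of Foxo1, and in 37.5% of all windows.

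The genes whose pattern was most like that of the core genes were named by correlation over the 10 libraries with group means removed, among 11993 other genes. For the mean of the 7 genes these were RGD1560436, Prrc2b and Tppp, with r of 0.971, 0.935 and 0.929, of which RGD1560436 was at 1.24 CPM. For Akt1 they were Slc18a3, Foxp4 and Sapcd2, with r of 0.985, 0.953 and 0.946, of which Slc18a3 was at 0.703 CPM and Sapcd2 at 1.24 CPM. For Mtor they were Wdr35, Tmem255a and Rcn2, with r of 0.984, 0.971 and 0.964. Such values are the highest of all genes compared, over 10 points that share library preparation and scaling, and no p is attached.

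Around the core, 11 lists of pathway genes held 137 genes, of which 125 had a row and 123 were tested. None passed over all genes (edgeR, smallest adjusted p = 0.8), with 69 higher, 54 lower and a median log2 fold change of 0.00794. The genes with an unadjusted p under 0.05 numbered 6, or 4.88% of those tested, and all 6 were lower with BT-11. Over all genes, 3.42% were lower at that level. The 6 were Irs1, Prr5, Kptn, Ndrg1, Txnip and Bcl2l11.

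Upstream of AKT, 8 of 11 genes of receptors and PI3K were higher and 3 lower, with a median log2 fold change of 0.01. Irs1, an adaptor of insulin and IGF1 receptors, ran from 9.16 to 14.1 CPM in untreated and from 7.68 to 11.5 CPM in BT-11 libraries. Its log2 fold change was -0.34 ± 0.152 (SE; edgeR, adjusted p = 0.809), and -0.35 with the myelin covariate. The related adaptor Irs2 was at 0.10 ± 0.079 (SE; edgeR, adjusted p = 0.827). Of 9 lipid and AKT phosphatases 5 were higher and 4 lower. Inpp5d, a phosphatase of microglia and blood cells, was at -0.36 ± 0.166 and Inpp4a at 0.10 ± 0.0664 on the log2 scale (SE; edgeR, adjusted p = 0.809 and 0.816). With the myelin covariate Inpp5d was at -0.0636 on the log2 scale. Of 8 microglia markers 3 were higher and 5 lower, with a median log2 fold change of -0.0555. The part of microglia content in Inpp5d was not tested.

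Among 27 tested genes of amino acid and energy sensing, 16 were higher and 11 lower, with a median of 0.01. Kptn, a subunit of the KICSTOR complex that restrains mTOR complex 1, stood at 4.51 ± 0.448 CPM in the untreated group and 3.5 ± 0.842 CPM in the BT-11 group (SD, n = 5 each; edgeR, adjusted p = 0.809). Its log2 fold change was -0.36, and -0.21 with the myelin covariate. Ddit4, an mTOR inhibitor induced by stress, had a log2 fold change of 0.14 ± 0.0693 (SE; edgeR, adjusted p = 0.809). It ran from 58.3 to 71.95 CPM in untreated and from 66.5 to 75.6 CPM in BT-11 libraries, and the groups overlapped. Of 14 effectors of mTOR complex 1, 5 were higher and 9 lower, with a median of -0.03. Lpin1, a phosphatidate phosphatase, was at -0.15 ± 0.0795, and Eif4e, the cap-binding protein, at 0.11 ± 0.0611 on the log2 scale (SE; edgeR, adjusted p = 0.809 and 0.811). With the myelin covariate Ddit4 was at 0.0416, Lpin1 at -0.18 and Eif4e at 0.00426.

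Ndrg1 had the smallest p of the pathway genes. It was also the 1 gene of 123 whose groups did not overlap, a share near the 0.842% of all genes tested. The protein is phosphorylated by SGK1 downstream of mTOR complex 2, and the gene is also expressed in myelinating glia. It ran from 164.6 to 204.0 CPM in untreated and from 116.9 to 153.9 CPM in BT-11 libraries. Ndrg1 had a log2 fold change of -0.39 ± 0.0866 (SE; edgeR, adjusted p = 0.8), while DESeq2 called it (adjusted p = 0.037). Its highest library, untreated library 3, and its lowest, BT-11 library 2, were also those of the summed myelin markers, at 16970 and 6709 CPM. With the myelin covariate its log2 fold change was -0.15. The other 6 tested genes of its list were higher, among them Prkca, a protein kinase C that complex 2 phosphorylates, at 0.45 ± 0.213 on the log2 scale (SE; edgeR, adjusted p = 0.809). Prkca ran from 79.3 to 176.0 CPM in untreated and from 126.6 to 212.6 CPM in BT-11 libraries, and its log2 fold change was 0.0242 with the myelin covariate.

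Of 25 tested genes known as FOXO targets, 14 were higher and 11 lower, with a median log2 fold change of 0.02. Txnip, an inhibitor of thioredoxin, measured 66.4, 76.6, 85.9, 55.8 and 59.0 CPM in untreated libraries and 37.1, 36.8, 66.0, 49.6 and 45.4 CPM in BT-11 libraries, in replicate order. BT-11 library 3 lay inside the untreated range and the other 4 below it. Txnip had a log2 fold change of -0.55 ± 0.162 (SE; edgeR, adjusted p = 0.8), and of -0.06 with the myelin covariate. Bcl2l11, which encodes the cell death protein BIM, stood at 4.96 ± 0.965 CPM in the untreated group and 3.57 ± 0.347 CPM in the BT-11 group (SD, n = 5 each). Bcl2l11 had a log2 fold change of -0.47 ± 0.152 (SE; edgeR, adjusted p = 0.8), and of -0.35 with the myelin covariate. Both genes were highest in untreated library 3. ATF4 is a factor induced by mTOR complex 1. Of 15 tested genes, Atf4 and its targets, 8 were higher and 7 lower, with a median of 0.02, the value of Atf4 itself. Slc7a11, the cystine transporter, was at 0.20 ± 0.0952 and Psat1, an enzyme of serine synthesis, at -0.15 ± 0.0921 on the log2 scale (SE; edgeR, adjusted p = 0.809 and 0.812). With the myelin covariate they were at 0.0902 and 0.12.

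**Figure D4:**
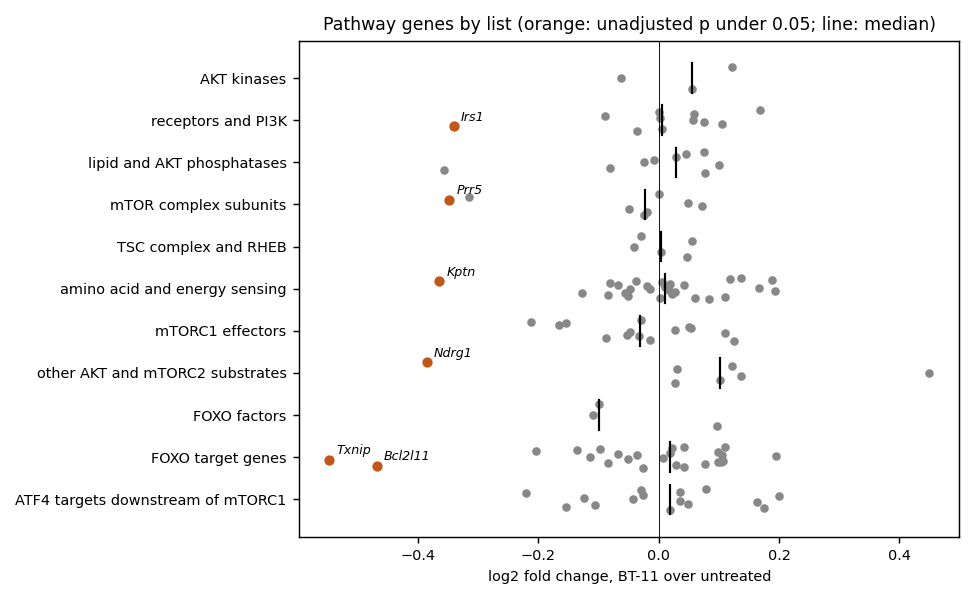
Log2 fold changes of BT-11 over untreated for the tested genes of 11 pathway lists, a point per gene, with a line at each list's median and orange for an unadjusted p under 0.05. The medians lie between -0.10 and 0.10, and the 6 orange genes are all on the left.

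**Figure D5:**
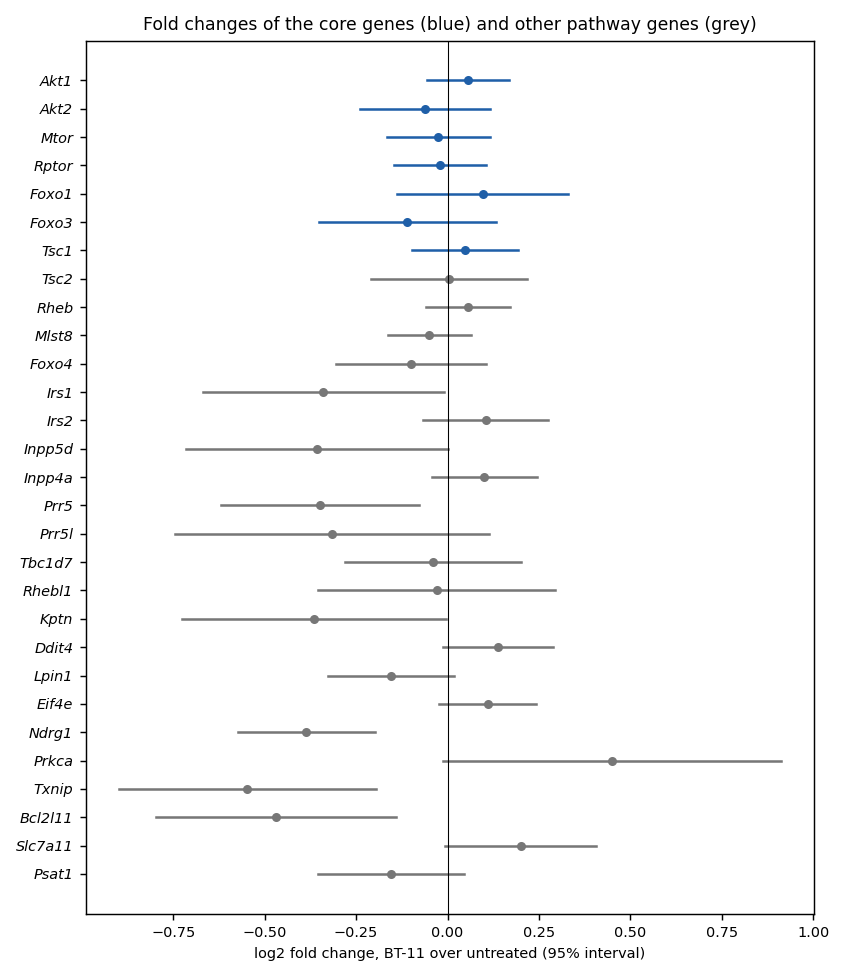
Log2 fold changes of BT-11 over untreated with 95% intervals for the 7 core genes (blue) and 22 other pathway genes (grey). All 7 blue intervals span 0, with ends from -0.35 to 0.33.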

How the data were processed

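Hippocampal RNA of 10 rats was purified on columns and read as paired ends of 50 bases from stranded mRNA libraries, per the labels' protocols. The submitters' processing notes name Partek, DESeq2, STAR 2.7.9a, bcl2fastq 2.19.1.403 and build rn6, without saying what each was used for. How reads were assigned to transcripts, and whether strand was used, is likewise not given in the sources used here. Estimated counts (expected counts) were deposited by the authors for 14806 transcript rows, with 85.4% of values whole within 1e-6. They also deposited a normalized signal, which equals those counts times 1 factor per library, from 0.822 to 1.15. Positions are printed as deposited, and the first base of a row may be counted from 0.

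Rows were summed by symbol (785 symbols had several, each core gene had 1) and rounded to whole numbers. No row of another symbol overlapped a core gene. filterByExpr of edgeR 4.0.16 kept 12000 genes and removed 1670, and its quasi-likelihood test, with TMM scaling, compared the groups two-sided, adjusted by Benjamini-Hochberg at 0.05. Standard errors were derived from the F statistic of each gene, and 95% intervals from the test's degrees of freedom. The common biological coefficient of variation was 13%. The procedure was also run on simulated counts, with an outcome not reported here. Genes were drawn independently there, without shared shifts in cell content, so that run cannot show how the test behaves under such shifts. Groups came from the treatment label. The design text calls the rats male once, while the labels say female. Each library is taken as a separate rat, so p-values measure differences against the spread between animals, and no pair of libraries of a group agreed within sampling noise (smallest chi-square per degree of freedom 6.43). Depth, from 13721673 to 19700443 counts, gave each core gene at least 358 counts per library.

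The core genes and lists were chosen with earlier results of these data known. Genes named were the core genes, some partners and the 2 further tested genes with the smallest p in each of 11 pathway lists. List genes were matched by symbol, ignoring letter case. The partners, named in any case, were Tsc2, Rheb, Mlst8, Foxo4 and Foxo6, the last not analysed here, and some other preset genes are not reported here. For the pattern most like that of the core genes, Akt1 or Mtor, the 3 genes of highest r were named. Alternatives were other scaling, no filter, DESeq2 1.42.0, limma 3.58.1 (voom, and log2 of the deposited normalized signal with a pseudocount of 1), a replicate block, single transcript rows, the myelin marker level as a covariate and each library left out. Leaving out the libraries rich in choroid plexus transcripts, also with untreated library 3, was chosen after seeing the data. R 4.3.3, Python 3.11.15, SciPy 1.17.1 and matplotlib 3.10.9 were used.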

Additional observations from a re-analysis of the deposited data

Results flagged for a closer look

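Dixon's gap test was applied to 62 groups of 5 libraries, and 3 samples stood far from the others of their group, where chance flags about 1 in 20 groups. Tsc1 in untreated library 2 was at 38.8 CPM, above the other 4 untreated libraries. Irs2 in untreated library 3 was at 104.0 CPM, below the other 4. Bcl2l11 in BT-11 library 2 was at 4.17 CPM, above the other 4 BT-11 libraries.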

How the results depend on the processing

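Under all 21 alternatives the 7 core genes gave 0 adjusted calls and 0 at an unadjusted p under 0.05, and their median log2 fold change ran from -0.0762, with the myelin covariate, to 0.0254, without both choroid plexus libraries, and from -0.0263 to 0.00845 with 1 library left out. With edgeR 0 genes were called, against 8 with DESeq2. The number of genes with an unadjusted p under 0.05 was 715, then 470 with the myelin covariate, 1435 without both choroid plexus libraries, 1136 without untreated library 3 as well, and 373 to 1129 with 1 library left out.

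Signs of uncalled fold changes turned in some settings, and the cause was not tested. With the myelin covariate the log2 fold change was 0.012 for Akt2, -0.12 for Foxo1, 0.14 for Foxo4, -0.10 for Irs2, -0.00713 for Inpp4a, 0.22 for Prr5l and 0.12 for Psat1. Without both choroid plexus libraries it was 0.0254 for Rptor, -0.00495 for Tsc2, 0.00826 for Tbc1d7 and 0.0208 for Rhebl1. Without untreated library 3 as well it was 0.00886 for Akt2, 0.0056 for Rptor, 0.004004 for Tbc1d7 and 0.10 for Rhebl1. Tsc2 was at -0.00968 with upper-quartile scaling, -0.00506 with limma voom, -0.00343 on the deposited normalized values and -0.00457 with the replicate block. With 1 library left out, Rptor ranged from -0.0476 to 0.00845, Tsc2 from -0.0576 to 0.0814, Tbc1d7 from -0.0928 to 0.0163 and Rhebl1 from -0.0912 to 0.031. Under the same setting the log2 ratio difference ranged from 0.0752 to 0.164 for Akt1 to Akt2 and from 0.169 to 0.283 for Foxo1 to Foxo3.

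Same-numbered libraries did not deviate together (r from -0.353 to 0.121, and 0 of 5 untreated libraries were closest to their own number), so the numbers are not taken as pairs. With the replicate block 571 genes had an unadjusted p under 0.05 and 0 were called. The exact p of both ratios was 0.188 over sign flips of the 5 same-numbered pairs. So few pairs cannot give a p under 0.05 by this test, whatever their values. The ratio of Rptor to Rictor and its alternatives were not run. The lowest count of a core gene was 358, and the spread between rats is the larger part of the error at such counts.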

Other observations

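Spread between rats differed among the core genes. The biological coefficient of variation was 6.73% for Akt1, 7.37% for Rptor, 7.7% for Tsc1 and 8.24% for Mtor, below the median of genes of like level for each (8.93%, 9.02%, 9.23% and 9.44%). It was 9.4% for Akt2, 12.1% for Foxo1 and 12.5% for Foxo3, above that median (9.16%, 9.29% and 9.39%). These are descriptions, with no test attached.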
